A study of Mus musculus with 88 samples.

Results

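*Ttr*, the gene of transthyretin, a carrier of thyroid hormone and retinol that choroid plexus epithelium makes in large amounts, was read in RNA of the frontal cortex of 88 mice, 1 library per mouse. Libraries are named here by mouse and genotype. A library was called *Ttr*-high at 100 CPM (reads of a gene, scaled to a total common to all libraries) or more, which 9 of the 88 libraries reached, and the other 79 are called the other libraries. *Ttr* alone chose the 9 libraries, so its values are a description and were not tested. All mice were 6.5 months old, on a C57BL/6 background, and carried human APOE3 (E3) or APOE4 (E4) in place of mouse *Apoe*. The genotypes marked APP also carried the APP transgenes of an amyloid model, and the genotypes marked Trem2ko lacked Trem2 in all cells, so that each genotype is a combination of germline alleles. The 9 *Ttr*-high libraries were 5 of the 14 APP/E3/Trem2ko, 2 of the 16 APP/E4/Trem2ko, 1 of the 14 APP/E4 and 1 of the 6 E4 libraries. None of the 14 APP/E3, 8 E3/Trem2ko, 8 E3 or 8 E4/Trem2ko libraries was among them. They came from 6 females and 3 males, against 39 females and 40 males for the other libraries.

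The choroid plexus is a sheet of ciliated epithelium folded around leaky capillaries inside the brain ventricles. Its epithelium makes the cerebrospinal fluid by pumping ions and water, keeps a barrier with tight junctions, and secretes carrier proteins and growth factors into the fluid. The neighbouring ependyma lines the ventricles and bears motile cilia. Cortex itself holds no choroid plexus, and the tissue in the labels was brain, with cortex in the protocol.

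*Ttr* reached 2875 CPM in mouse D3884, 2187 in D3939, 1758 in D3885, 1334 in D3891 and 283 in D3627, all APP/E3/Trem2ko. It was 1268 CPM in E4132 and 377 in E3703, both APP/E4/Trem2ko, 389 in E3679, which is E4, and 169 in E3475, which is APP/E4. In the other libraries *Ttr* had a lowest value of 0.360, a median of 5.26 and a highest value of 84.9 CPM. The 2 members nearest the threshold were D3627 and E3475. The nearest libraries below it were D3833 with 84.9 CPM and D3893 with 50.5 CPM, both E3/Trem2ko, D3811 (E3) with 45.6 CPM and D3663 (APP/E3/Trem2ko) with 40.7 CPM. The values nearest the threshold on either side were thus 169 and 84.9 CPM. In the 4 genotypes without a *Ttr*-high library the highest value was 25 CPM in APP/E3, 84.9 in E3/Trem2ko, 45.6 in E3 and 18.5 in E4/Trem2ko.

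**Figure D1:**
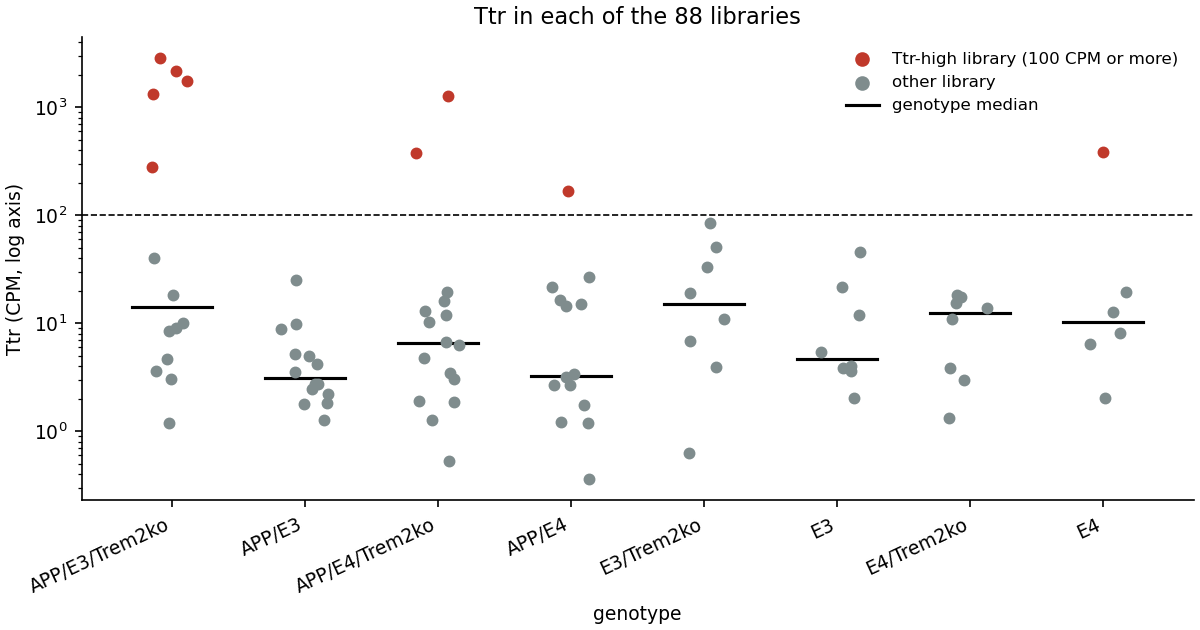
*Ttr* in CPM on a log axis, 1 point per library, by genotype, with the *Ttr*-high libraries in red, the other libraries in grey, black bars at the genotype medians and a dashed line at 100 CPM. The 5 red points of APP/E3/Trem2ko range between 283 and 2875 CPM, and E3/Trem2ko comes nearest the line from below with 84.9 CPM.

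The *Ttr*-high libraries held 44.5 to 55.1 M reads (median 51.8) and the other libraries 41.3 to 95.5 M (median 49.8). Reads of the ribosomal precursor *Rn45s* ran between 897 and 11362 CPM (median 1245) in the *Ttr*-high and between 648 and 10731 CPM (median 1934) in the other libraries, and E3475 was the highest of the *Ttr*-high ones. The keratins *Krt13*, *Krt4* and *Krt6a* together reached 1 CPM in 31 libraries, of which 1, E3703, was *Ttr*-high, with 15.3 CPM of keratin and 14.5 CPM of *Alb*. *Drd2*, a receptor of striatal neurons, had 0.565 to 2.62 CPM (median 0.684) in the *Ttr*-high and 0.439 to 72.4 CPM (median 1.18) in the other libraries. The part of *Rn45s* in the results was not tested. The comparison of *Ttr*-high with other libraries called 53 genes higher and 15 lower, against 38 and 1 without the keratin libraries, 53 and 19 without libraries of high *Alb*, and 62 and 0 with a covariate of striatal markers.

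Genes were compared between the 9 *Ttr*-high and the 79 other libraries with limma on log2(CPM + 0.5), with genotype as a covariate, and were called at a Benjamini-Hochberg adjusted p under 0.05. Since the libraries were split by a measured transcript, a call says that a gene goes with *Ttr* across libraries and nothing about a treatment. Of 14085 genes tested besides *Ttr*, 53 were called higher (0.376%) and 15 lower (0.106%). Of the 53, 24 were on 5 lists of choroid plexus genes, 2 were on a list of motile cilia and ependyma, and 27 were on no list. The choroid plexus lists hold 80 symbols, aliases of the same gene among them, of which 52 are in the test. Each deposited gene exceeds 1 CPM in at least 20 libraries, so a transcript above 1 CPM in the 9 libraries alone could not appear. Thus 24 of 52 were called higher and 0 lower (0 also by edgeR, by DESeq2 and at an unadjusted p under 0.05). Their median log2 difference was 0.57 over the 52, against 0.01 over all genes. The 24 differences ran between 0.37 and 2.98, and of the 28 choroid plexus genes that were not called 23 had a positive difference. Of all genes tested 18 averaged under 1 CPM in the other libraries and passed the filter on the mean only through the *Ttr*-high ones, and such a gene had to be higher in them. They include 5 of the 24 genes, *Kcnj13*, *Sostdc1*, *1500015O10Rik*, *Aqp1* and *Slc16a8*, as well as *Drc7* and *Tekt1* of the cilia list. Without the 5, 19 of 47 choroid plexus genes were called, with a median of 0.51. In bulk RNA, more cells of a type and more RNA per cell cannot be told apart.

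*Kcnj13*, *Kl*, *Sostdc1* and *Drc7* were the 4 genes, other than *Ttr*, for which every *Ttr*-high library lay above every other library (4 of 14085, 0.0284%). Only *Kl* of these did not need the *Ttr*-high libraries to pass the filter on the mean, so for the others a higher value was fixed in advance. *Kcnj13* codes for the potassium channel Kir7.1 of the apical membrane of choroid plexus epithelium, *Kl* for klotho, a co-receptor for fibroblast growth factor 23, *Sostdc1* for a secreted inhibitor of BMP and Wnt signals, and *Drc7* for a part of the dynein regulatory complex of motile cilia. They lie on chromosomes 1, 5, 12 and 8 of GRCm38. Promoter sequences from RefSeq (GRCm38.p6), 250 bases before to 50 after the start, are shown for the 3 of these 4 for which one was found. These genes were taken because the groups did not overlap in them. *Abca4* is shown as 1 of the 3 called choroid plexus genes with a match to a motif. The motif searched was TAATCC, on both strands, the core that OTX2, a homeodomain factor of choroid plexus, is known to bind, and capitals mark a match.
*Kcnj13*, chr1:87394680-87394979, minus strand: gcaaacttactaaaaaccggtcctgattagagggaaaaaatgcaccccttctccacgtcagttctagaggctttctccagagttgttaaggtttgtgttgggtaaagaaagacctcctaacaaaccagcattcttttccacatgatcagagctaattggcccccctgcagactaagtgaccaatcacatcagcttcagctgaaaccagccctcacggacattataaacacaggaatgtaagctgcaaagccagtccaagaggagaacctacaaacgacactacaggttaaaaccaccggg
*Kl*, chr5:150952357-150952656, plus strand: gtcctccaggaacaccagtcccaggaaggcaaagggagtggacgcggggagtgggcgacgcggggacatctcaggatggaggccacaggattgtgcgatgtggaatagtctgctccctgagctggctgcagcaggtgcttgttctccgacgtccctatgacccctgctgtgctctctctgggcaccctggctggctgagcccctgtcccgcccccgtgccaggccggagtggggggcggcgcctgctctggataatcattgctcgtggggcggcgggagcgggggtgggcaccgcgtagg
*Drc7*, chr8:95054853-95055152, plus strand: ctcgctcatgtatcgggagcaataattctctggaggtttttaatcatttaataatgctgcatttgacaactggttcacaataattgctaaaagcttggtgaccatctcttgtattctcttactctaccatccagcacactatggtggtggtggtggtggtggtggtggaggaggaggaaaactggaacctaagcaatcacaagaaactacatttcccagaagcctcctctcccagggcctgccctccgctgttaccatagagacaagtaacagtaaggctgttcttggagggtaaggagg
*Abca4*, chr3:122044210-122044509, plus strand: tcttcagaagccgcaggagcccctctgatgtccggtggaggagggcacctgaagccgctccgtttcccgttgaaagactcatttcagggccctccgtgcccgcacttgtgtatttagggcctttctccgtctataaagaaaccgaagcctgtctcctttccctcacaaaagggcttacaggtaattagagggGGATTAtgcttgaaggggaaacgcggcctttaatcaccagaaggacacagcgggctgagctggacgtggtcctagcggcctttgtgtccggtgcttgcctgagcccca
These letters were absent from the first 3 windows and occurred once in that of *Abca4*. Of the 24 called choroid plexus genes, 19 had a promoter in the table and 3 of these (*Abca4*, *Ace* and *Igf2*, 15.8%) held the motif, against 8.14% of all 27025 genes with a promoter there. A match is a description of the letters and does not show a binding site.

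Among membrane proteins that move ions and water, *Kcnj13* had a lowest value of 3.71, a median of 11.6 and a highest value of 22.4 CPM in the *Ttr*-high libraries, against 0.121, 0.703 and 2.61 CPM in the other libraries. All 9 libraries were above the highest of the 79, and the difference was 2.84 ± 0.21 (log2, SE). *Kcnj13* passed the filter on the mean only through the *Ttr*-high libraries, so its direction was fixed in advance and no p-value is given. *Aqp1*, the water channel of the apical membrane, had 1.86, 6.04 and 15.6 CPM in the *Ttr*-high libraries against 0, 0.455 and 10.2 CPM in the other libraries. Here the groups overlapped, since only 1 *Ttr*-high library exceeded the highest other library, E3204, an APP/E4 mouse with 1.19 CPM of *Ttr*. The difference in *Aqp1* was 2.61 ± 0.30 (SE), again in a direction fixed by the filter on the mean. *Trpv4*, a cation channel that responds to osmotic swelling, had 2.36, 5.49 and 15.5 CPM against 0.414, 1.08 and 4.14 CPM, a difference of 1.77 ± 0.15 (SE; adjusted p = 1.73e-15), and 1 other library lay above the lowest *Ttr*-high library.

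*Clic6*, a chloride intracellular channel protein, had 9.81, 26.2 and 50.3 CPM in the *Ttr*-high libraries against 0.181, 2.54 and 43.4 CPM in the other libraries. The highest of these was D3938, an APP/E3/Trem2ko mouse with only 3.04 CPM of *Ttr*, and 12 other libraries lay above the lowest *Ttr*-high one. The 5 other libraries with most *Clic6*, 19.5 to 43.4 CPM, had 52.4 to 71.1 CPM of the striatal marker *Drd2*, against at most 2.62 CPM in any *Ttr*-high library. The difference in *Clic6* was 2.51 ± 0.51 (SE; adjusted p = 0.0023) and was not called with edgeR on the recovered reads (adjusted p = 0.0736), and it was 3.32 with a covariate of striatal markers. Of the 9 channels, pumps and transporters called, the others were *Slc4a2*, a basolateral anion exchanger (0.55 ± 0.10), *Slc31a1*, a copper importer (0.49 ± 0.06), *Slc2a12*, a glucose transporter (1.24 ± 0.13), *Slc16a8*, a lactate transporter (1.49 ± 0.17) and *Abca4*, a retinoid flippase (1.44 ± 0.24). The direction of *Slc16a8* was fixed by the filter on the mean. Of the 14 genes of this list that did not pass the test, *Slc12a2*, the sodium, potassium and chloride cotransporter, had a difference of 0.31 ± 0.11 (SE; adjusted p = 0.156), and *Atp1b1*, a subunit of the sodium pump, 0.04 ± 0.05 (SE; adjusted p = 0.726).

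Of 12 secreted proteins on the lists 8 were called. *Enpp2*, which codes for autotaxin, the enzyme that makes lysophosphatidic acid, had 264, 587 and 1258 CPM as lowest, median and highest value in the *Ttr*-high libraries against 82.9, 199 and 286 CPM in the other libraries. It was abundant in all libraries, and 8 of the 9 lay above the highest of the 79, with a difference of 1.61 ± 0.14 (SE; adjusted p = 1.73e-15). *Sostdc1* had 3.84, 7.49 and 27.2 CPM against 0.0878, 0.717 and 2.94 CPM, a difference of 2.98 ± 0.23 (SE), the largest of the 24. The transcript *1500015O10Rik*, also called *Ecrg4*, which codes for a secreted peptide precursor, had 1.09, 13.3 and 29.4 CPM against 0.156, 0.654 and 2.09 CPM. Its difference was 2.64 ± 0.23 (SE), with E3475 as the only *Ttr*-high library within the range of the others. *Sostdc1* and *1500015O10Rik* passed the filter on the mean only through the *Ttr*-high libraries, so their direction was fixed in advance and no p-value is given. The lipopolysaccharide binding protein gene *Lbp* (2.04 ± 0.23), the type VIII collagens *Col8a1* (1.42 ± 0.18) and *Col8a2* (1.93 ± 0.24) and the procollagen enhancer *Pcolce* (0.99 ± 0.22) were also called. *Igf2*, an insulin-like growth factor that choroid plexus and meninges both make, had 64.2, 87.9 and 211 CPM against 14, 47.4 and 130 CPM, a difference of 1.06 ± 0.27 (SE; adjusted p = 0.0486) that did not pass in 10 of 22 alternative fits. *Igfbp2*, which binds such factors, had a difference of 0.70 ± 0.19 (SE; adjusted p = 0.059).

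Among receptors and enzymes 4 of 7 were called. *Kl* had 14.2, 40.7 and 98.2 CPM against 1.28, 4.59 and 9.69 CPM, a difference of 2.76 ± 0.22 (SE; adjusted p = 8e-17). *Prlr*, the prolactin receptor, had 3.90, 13 and 30.6 CPM against 0.169, 0.974 and 6.47 CPM, a difference of 2.97 ± 0.28 (SE; adjusted p = 9.98e-14), and 5 other libraries lay above its lowest *Ttr*-high value. *Ace*, the angiotensin converting enzyme, differed by 0.93 ± 0.12 and *Rdh5*, a retinol dehydrogenase, by 1.31 ± 0.13. The transcription factor *Msx1* (0.95 ± 0.19), the tight junction protein *Cldn1* (1.05 ± 0.22) and *Cab39l* (0.37 ± 0.05), a scaffold of the kinase LKB1, were called in the remaining lists. Of the 24 genes D3884, the library with most *Ttr*, had 24 above every other library, D3891 had 20, D3885 17, D3939 16, E4132 15, E3679 and E3475 11 each, D3627 6 and E3703 5. The 24 genes were chosen by their calls in these same libraries, so the counts are a description. The counts over all genes are not given here for single libraries.

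**Figure D2:**
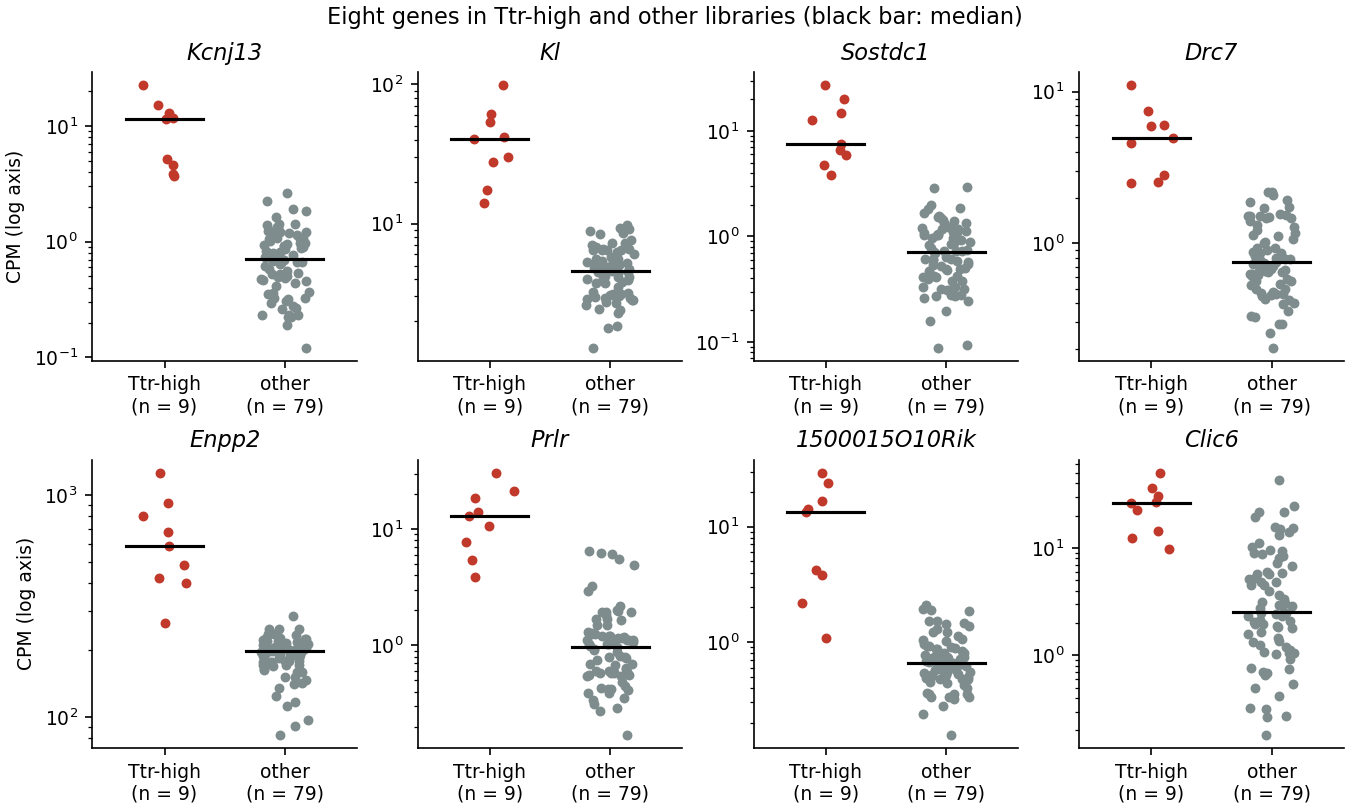
CPM on log axes for 8 genes in the 9 *Ttr*-high libraries (left in each panel, red) and the 79 other libraries (right, grey), 1 point per library with black bars at the medians. The groups do not meet for *Kcnj13*, *Kl*, *Sostdc1* and *Drc7*, while for *Clic6* the highest grey point, 43.4 CPM, is near the highest red one, 50.3 CPM.

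The list of motile cilia and ependyma names 45 genes, of which 21 are in the test. Of the 21 tested, 2 were called higher and 0 lower, with a median difference of 0.15, against 0.376% higher and 0.106% lower of all genes. The 2 called, *Drc7* and *Tekt1*, passed the filter on the mean only through the *Ttr*-high libraries. Their direction was thus fixed in advance, and no p-value is given for them. *Drc7* had 2.49, 4.93 and 11 CPM in the *Ttr*-high libraries against 0.204, 0.746 and 2.17 CPM in the other libraries, a difference of 1.92 ± 0.19 (SE) and without overlap. *Tekt1*, a protein of ciliary microtubules, had 1.16, 1.43 and 2.26 CPM against 0.272, 0.911 and 2.52 CPM, so that the groups overlapped, with a difference of 0.60 ± 0.14 (SE). *Foxj1*, the transcription factor that sets up motile cilia, had a difference of 0.51 ± 0.17 (SE; adjusted p = 0.151) and *Dnah5*, an axonemal dynein, 0.59 ± 0.16 (SE; adjusted p = 0.0742). The summed level of the 21 genes was 59.5 to 98.1 CPM (median 73.3) in the *Ttr*-high and 40.5 to 111 CPM (median 57.8) in the other libraries.

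The other 18 lists, of cell types, brain regions and early genes, had 143 entries in the test. Of these 0 were called in either direction by limma or by edgeR, and DESeq2 called 1 higher and 6 lower. At an unadjusted p under 0.05 there were 4 higher and 15 lower, against 1143 and 993 of all 14085 genes. Markers of meninges and stromal fibroblasts summed to 239 to 1618 CPM (median 559.8) in the *Ttr*-high and to 197 to 1533 CPM (median 509) in the other libraries, with a median difference of 0.09 over 19 genes. *Plvap*, of the fenestrated capillaries that choroid plexus also holds, had 1.81, 7.45 and 10.4 CPM against 2.30, 6.61 and 11.4 CPM, a difference of 0.03 ± 0.13 (SE; adjusted p = 0.935). The 12 striatal genes had the lowest median of the lists, -0.99, and summed to 313 to 427 CPM (median 377) in the *Ttr*-high and 283 to 3760 CPM (median 386) in the other libraries. Sums above 427 CPM occurred in other libraries only. *Adora2a*, an adenosine receptor gene of striatal neurons, had at most 7.81 CPM in the *Ttr*-high and at most 183 CPM in the other libraries. The 9 oligodendrocyte genes had a median of 0.22, 10 microglial genes -0.14 and 9 astrocyte genes 0.00. The 85 genes of the respiratory chain and ATP synthase had a median of 0.00 and 80 cytosolic ribosomal protein genes 0.10, with 0 called in each by limma or edgeR (4 and 9 higher and 3 and 3 lower at an unadjusted p under 0.05, and 0 and 1 called by DESeq2). Both groups were chosen by symbol after values were seen.

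**Figure D3:**
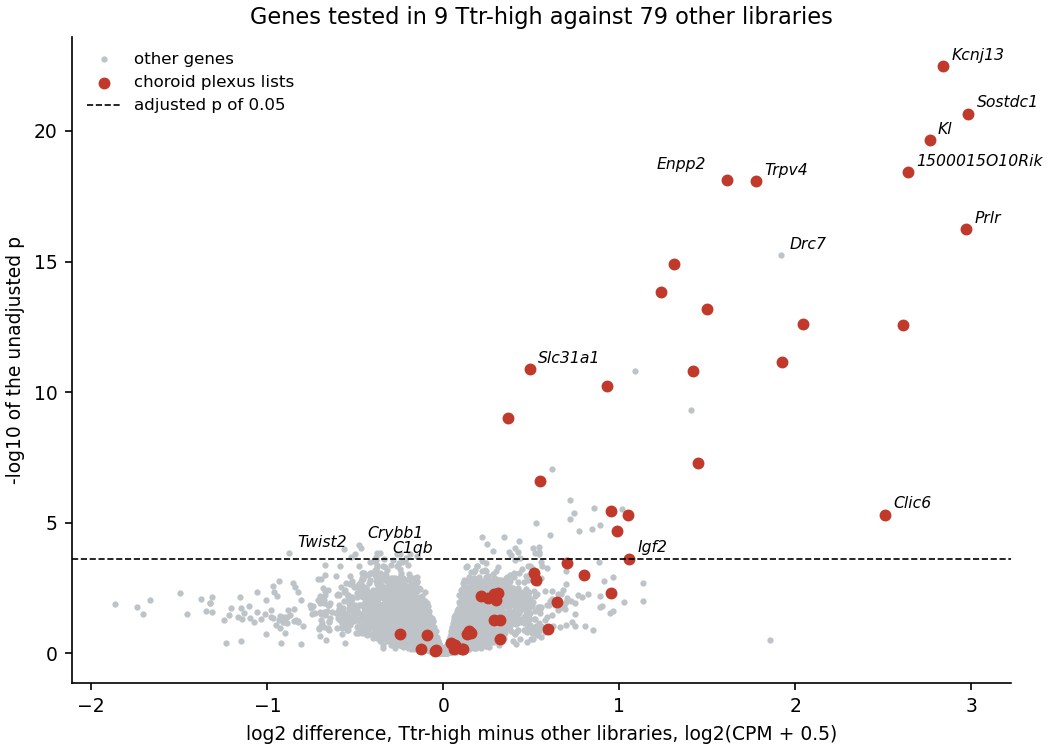
Log2 difference (*Ttr*-high minus other libraries, on log2(CPM + 0.5)) against -log10 of the unadjusted p for the 14085 genes tested, with choroid plexus genes in red, other genes in grey and a dashed line at the adjusted p of 0.05. The red points of *Kcnj13* and *Sostdc1*, which passed the filter on the mean only through the *Ttr*-high libraries, stand highest, at 2.84 and 2.98. Genes called lower sit just over the line at differences between -0.88 and -0.15.

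Several of the 27 genes on no list, chosen after their values were seen, code for secreted or membrane proteins. *Col9a3*, a type IX collagen chain, had 9.05, 18.1 and 35.3 CPM against 4.28, 7.67 and 15.6 CPM, a difference of 1.09 ± 0.14 (SE; adjusted p = 1.21e-08). The endocytic adaptor *Epn3* differed by 1.41 ± 0.20, the semaphorin *Sema3b* by 1.01 ± 0.20, the sphingomyelin synthase *Sgms2* by 0.62 ± 0.11, the leptin receptor *Lepr* by 0.77 ± 0.17 and the growth factor *Gas6* by 0.25 ± 0.06. *Lepr* did not pass in 3 and *Gas6* in 6 of 22 alternative fits.

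The 15 genes called lower were *Crybb1*, *Spc24*, *Vstm2b*, *Chpf2*, *Twist2*, *Eme2*, *Rnf44*, *Trim46*, *Rasl10a*, *Laptm5*, *Ube2v1*, *Arhgap33*, *Cpne5*, *Tmem201* and *C1qb*, and their differences ran between -0.88 and -0.15. *C1qb*, a chain of complement C1q made by microglia, had 9.35, 11.7 and 16.2 CPM in the *Ttr*-high libraries against 9.53, 16.4 and 23.2 CPM in the other libraries, a difference of -0.34 ± 0.09 (SE; adjusted p = 0.049). *Twist2*, a transcription factor of mesenchyme, had 0.349, 0.766 and 1.13 CPM against 0.342, 1.69 and 7.17 CPM, a difference of -0.88 ± 0.22 (SE; adjusted p = 0.0366). In all 15 the groups overlapped. The count was 0 without E3475, 3 without D3884, 4 without each of D3885, D3891 and E4132, 6 without E3679, 0 when the libraries were split at 50 or at 200 CPM, and 0 with a covariate of striatal markers, while 38 genes were called lower without D3939.

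The comparison was next made in APP/E3/Trem2ko alone, with 5 *Ttr*-high and 9 other libraries, and outside it, with 4 and 70 libraries and genotype as a covariate, so that the fits share no library. Within APP/E3/Trem2ko 25 genes were called higher (0.178%) and 0 lower (309 lower at an unadjusted p under 0.05, and 0 by edgeR), and outside it 26 higher (0.185%) and 13 lower (0.0923%). Choroid plexus genes made up 21 of the 25 and 17 of the 26, out of 53 and 52 such genes tested. The other 4 within APP/E3/Trem2ko were *Drc7*, *Epn3*, *Gpx8* and *Dsp*, which codes for desmoplakin, a junction protein of epithelia that was on the hippocampal list (1.65 ± 0.26, adjusted p = 0.00873). The fits shared 19 genes called higher, 76% of the 25 and 73.1% of the 26, of which 17 were choroid plexus genes. The filter on the mean was applied anew in each fit, so a gene could again pass it only through the *Ttr*-high libraries. Such a gene had to be higher, and the number of such genes in these fits is not given here. Of the 53 genes called in all libraries, 53 had a positive difference in both fits, although these calls rest on the same libraries. The interaction between *Ttr*-high status and APP/E3/Trem2ko was called for 0 genes (696 at an unadjusted p under 0.05, smallest adjusted p = 0.857 over 14085 genes).

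In APP/E3/Trem2ko *Kcnj13* was 22.4, 15, 11.7, 12.9 and 3.71 CPM in D3884, D3939, D3885, D3891 and D3627, against 0.192 to 1.32 CPM (median 0.744) in the 9 other libraries. The lowest of the 5 libraries, D3627, was still above the highest of the 9, and the difference was 3.32 ± 0.33 (SE). *Sostdc1* was 27.2, 12.8, 14.9, 20.3 and 3.84 CPM in the same mice, against 0.196 to 1.5 CPM (median 0.481), a difference of 3.67 ± 0.37 (SE). Both genes averaged under 1 CPM in the 9 other libraries, so their direction was fixed by the filter on the mean and no p-value is given. *Enpp2* was 1258, 587, 680, 922 and 264 CPM, against 151 to 211 CPM (median 199.8), a difference of 1.78 ± 0.26 (SE; adjusted p = 0.0062). In these 3 genes D3884 was the highest and D3627 the lowest library, as for *Ttr*, while in *Sostdc1* and *Enpp2* D3891 lay above D3939, which had more *Ttr*. There were 22 of 14060 genes (0.156%) for which all 5 libraries lay above all 9.

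Outside APP/E3/Trem2ko *Kcnj13* was 11.6, 5.20, 3.82 and 4.56 CPM in E4132, E3679, E3703 and E3475, against 0.121 to 2.61 CPM (median 0.701) in the 70 other libraries. The difference was 2.40 ± 0.26 (SE). Here too *Kcnj13* averaged under 1 CPM in the other libraries, so its direction was fixed by the filter on the mean and no p-value is given. *Kl* was 29.8, 27.8, 17.5 and 40.7 CPM against 1.28 to 9.69 CPM (median 4.58), a difference of 2.40 ± 0.28 (SE; adjusted p = 2.1e-08). In *Kl* the mouse with the least *Ttr* of the 4, E3475, was the highest. *Prlr* was 10.6, 7.78, 5.42 and 18.4 CPM against 0.169 to 6.47 CPM (median 0.978), and E3703 was within the range of the other libraries. *Igfbp2* was called in APP/E3/Trem2ko (1.23 ± 0.23, adjusted p = 0.0408) and not outside it (0.22 ± 0.25, adjusted p = 0.696), which by the interaction above does not show a difference between the fits. Counts outside APP/E3/Trem2ko depended on single libraries. They were 168 higher and 305 lower without E3703, 12 higher and 0 lower without E4132, 17 higher and 26 lower without E3679, and 8 lower without E3475. Within APP/E3/Trem2ko 42 genes were called higher without D3627 and 16 without D3885, and 14 with sex as a covariate. The 5 *Ttr*-high libraries there were from 4 females and 1 male and the 9 others from 3 females and 6 males.

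The amount of other transcripts relative to *Ttr* differed between the 9 libraries. For each gene the median of the other libraries was subtracted and the rest given per 1000 CPM of *Ttr*. *1500015O10Rik* gave 8.10 to 10.6 in 7 libraries, 5.44 in D3627 and 2.58 in E3475. *Kcnj13* gave 6.26 to 11.5 in 8 libraries and 22.8 in E3475. *Kl* gave 17.0 in D3939, 59.5 in E3679 and 214 in E3475, with a median of 33.8. *Enpp2* gave 177 in D3939, 570.1 in E3679 and 1690 in E3475, with a median of 477. *Prlr* gave 5.50 to 17.5 in 8 libraries and 103 in E3475. E3475 was the highest of the 9 by this measure for 12 of 15 genes computed, all but *Drc7*, *1500015O10Rik* and *Igf2*, and it was also the library with the lowest *Ttr* and the highest *Rn45s* of the 9. The ratios of the highest to the lowest library were 12.6 for *Kl* and 9.52 for *Enpp2*, and 3.50 and 3.21 without E3475. Over the 9 libraries the correlation with *Ttr* on the log2 scale was 0.996 for *1500015O10Rik*, 0.95 for *Kcnj13*, 0.69 for *Kl* and 0.56 for *Prlr*, a description of points that were chosen by *Ttr*.

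**Figure D4:**
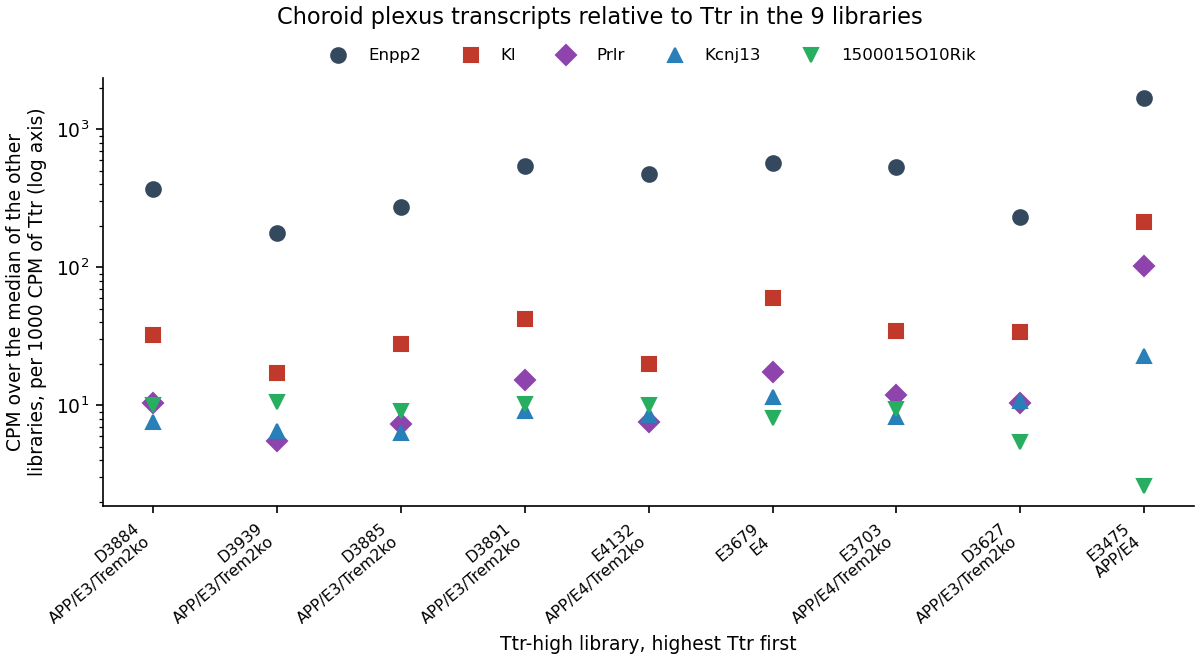
CPM over the median of the other libraries per 1000 CPM of *Ttr*, on a log axis, for 5 genes in each *Ttr*-high library, with the highest *Ttr* at the left. The points of *1500015O10Rik* stay between 8.10 and 10.6 in the first 7 libraries, and those of *Kl*, *Enpp2* and *Prlr* are highest in E3475 at the right.

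Over the 79 other libraries, which differ in genotype and depth, the 10 genes whose log2 values had the highest Pearson r with *Ttr* were *Slc23a3* (0.57), *Kl* (0.52), *Cadm1* (0.52), *Prelp* (0.51), *Kit* (0.50), *Chst8* (0.50), *Spint2* (0.50), *Sostdc1* (0.50), *Rnf182* (0.50) and *Drc7* (0.49). Of these *Kl*, *Sostdc1* and *Drc7* were also among the 4 genes without overlap. The r of all genes ran between -0.52 and 0.57. The r was 0.38 for *Kcnj13*, 0.27 for *1500015O10Rik*, -0.06 for *Aqp1* and -0.11 for *Enpp2*. Of the 52 choroid plexus genes 38 had a positive r, with a median of 0.10, against 7202 of 14085 genes and a median of 0.00. The library nearest the threshold, D3833 with 84.9 CPM of *Ttr*, had 2.86 CPM of *Sostdc1* and 1.08 CPM of *Kcnj13*, and D3893 with 50.5 CPM of *Ttr* had 1.04 and 2.61 CPM.

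Of the 9 libraries 5 fall in 1 genotype, so the genotype comparisons of the study were made with all libraries and without the 9, in limma with genotype and sex. The libraries were left out for their *Ttr*, so a smaller difference in *Ttr*, and in genes that go with it, follows from that choice and is a description. In APP/E3/Trem2ko against APP/E3 (14 and 14 libraries, 9 and 14 without the *Ttr*-high ones) 29 genes were called higher (0.206%) and 16 lower (0.114%), and without the *Ttr*-high libraries 16 higher (0.114%) and 5 lower (0.0355%). Of the 45 genes called 21 remained and 24 did not, and no further gene was called. The 52 choroid plexus genes had a median difference of 0.45 with all libraries and of 0.03 without the *Ttr*-high ones. *1500015O10Rik*, 1 of 52 choroid plexus genes, was called with all libraries, with a difference of 1.44 ± 0.36 (SE; adjusted p = 0.0394), and it had 0.24 ± 0.18 (SE; adjusted p = 1) without them. *Kcnj13* had 1.33 ± 0.36 with all libraries and 0.16 ± 0.21 without, and *Ttr* 3.44 and 0.72.

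In APP/E3/Trem2ko against E3/Trem2ko (14 and 8 libraries) 10 genes were called higher (0.071%) and 11 lower (0.0781%), and without the *Ttr*-high libraries 34 higher (0.241%) and 34 lower (0.241%). By limma 0 of 52 choroid plexus genes were called with all libraries, although 22 had an unadjusted p under 0.05 and a positive difference. Of all genes 16.7% had an unadjusted p under 0.05 in either direction. The 52 genes had a median of 0.36 with all libraries and of 0.01 without the *Ttr*-high ones. With the *Ttr*-high indicator as a covariate in place of leaving libraries out, 147 genes were higher and 211 lower in this comparison. In APP/E4/Trem2ko against APP/E3/Trem2ko (16 and 14 libraries, 14 and 9 without the *Ttr*-high ones) 203 genes were called higher (1.44%) and 425 lower (3.02%), and without the *Ttr*-high libraries 37 higher (0.263%) and 43 lower (0.305%). *Atp1b1*, *Lbp*, *Msx1*, *Rdh5* and *Slc5a5*, 5 of 52 choroid plexus genes, were called lower with all libraries and 0 without the *Ttr*-high ones. The difference went from -0.98 to -0.38 for *Lbp*, -0.67 to -0.15 for *Msx1* and -0.65 to -0.17 for *Rdh5*. It changed little for *Atp1b1* (-0.17 to -0.19) and *Slc5a5* (-0.33 to -0.31), and *Atp1b1* was still called lower with the *Ttr*-high indicator as a covariate. The 52 genes had a median of -0.22 with all libraries and of 0.04 without the *Ttr*-high ones. With the indicator as a covariate, 238 genes were higher and 468 lower. In APP/E4/Trem2ko against APP/E4 1588 genes were called higher (11.3%) and 356 lower (2.53%) in all libraries. The counts were 138 higher (0.98%) and 35 lower (0.248%) without its 3 *Ttr*-high libraries, and 1553 higher and 353 lower with the indicator. Why the counts differ between these fits was not tested. *Atp1b1* was the 1 choroid plexus gene called in each of the 3 fits of APP/E4/Trem2ko against APP/E4.

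**Figure D5:**
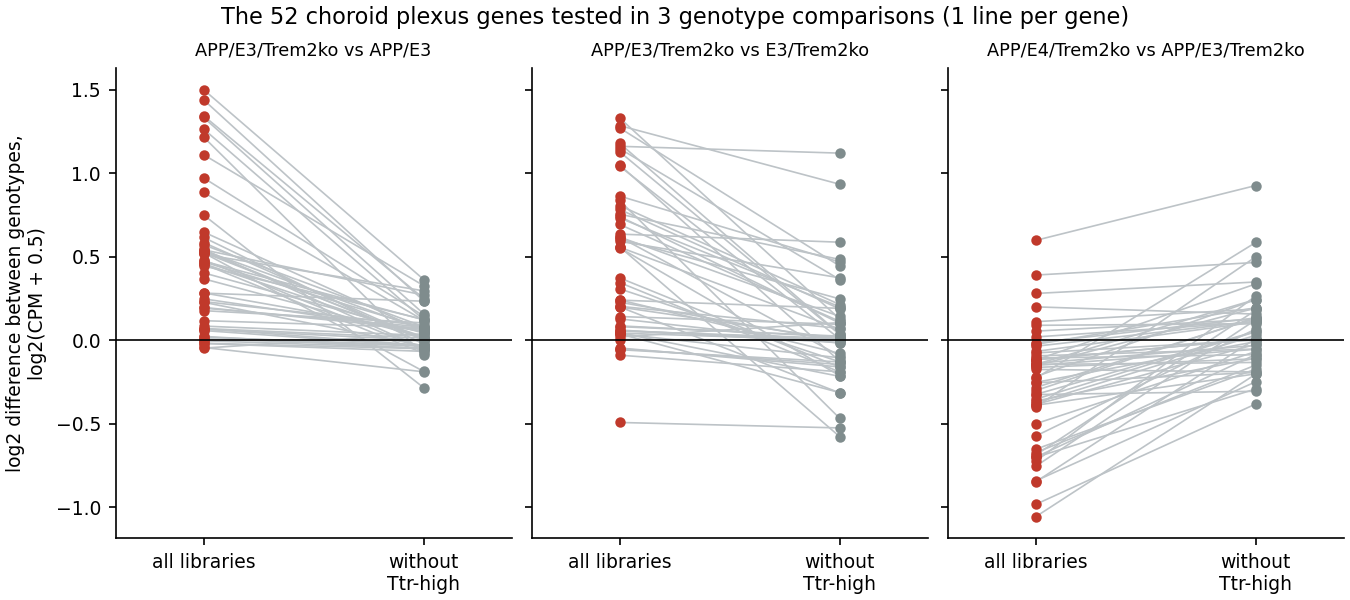
Log2 difference between genotypes on log2(CPM + 0.5) for the 52 choroid plexus genes tested, 1 line per gene, with all libraries (red, left) and without the *Ttr*-high libraries (grey, right) in 3 comparisons. In the first panel the medians are 0.45 and 0.03, and in the third -0.22 and 0.04.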

How the data were processed

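Cortical RNA of 88 mice was measured by RNA-seq. The deposited values are CPM per gene and library, which the authors made from reads aligned to mm10 and counted with featureCounts; the gene filter is not given in the sources used here, and each of the 14451 genes left after removal of 46 repeated entries exceeds 1 CPM in at least 20 libraries. In all columns the values were whole multiples of 1 read within 0.01 of a read. A stricter rule on low values passed 23 columns. The recovered reads were used for alternatives only. Depth was 41.3 to 95.5 M reads. The authors describe an adjustment for sequencing batch, but the labels do not give the batch, so it was not modelled here.

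Every gene whose mean reached 1 CPM was tested with limma 3.58.1 (R 4.3.3; trend, robust) on log2(CPM + 0.5), checked on simulated data, with Benjamini-Hochberg adjustment. Differences on this scale understate changes of low genes. Genes named are *Ttr*, called members of the 5 choroid plexus lists, the top 15 called genes by p in each direction, up to 4 per other list, and the 10 most like *Ttr* over the 79 libraries, and others were chosen after values were seen. The split, the members and the lists were chosen with earlier results of these data known. Positions are from GENCODE vM21. Alternatives were pseudocounts of 0.1 and 1, no filter, sex, TMM, edgeR 4.0.16, DESeq2 1.42.0, splits at 50 and 200 CPM, leaving out libraries with at least 1 CPM of keratins or 50 CPM of *Alb*, a covariate of striatal markers, and each *Ttr*-high library left out. Slopes on log2 *Ttr*, an offset for gene length and all-gene counts of 3 genotype comparisons were added after seeing the data.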

Additional observations from a re-analysis of the deposited data

Results flagged for a closer look

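Single libraries far from the rest of the 9 *Ttr*-high libraries were looked for in 25 genes, with a test that chance passes in about 1 of 20 groups, and 2 were found. *Trpv4* was 15.5 CPM in D3884, against 8.64 CPM in the next of the 9, and *Slc2a12* was 16.7 CPM in D3884, against 10 CPM in the next. D3884 also had the most *Ttr*.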

How the results depend on the processing

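Of 55 calls on named genes 29 held under every alternative run on single genes, among them 20 of the 24 choroid plexus calls, and *Igf2*, *Pcolce*, *Clic6* and *Msx1* each missed the threshold in at least 1. No named gene that was called changed sign. Genes called higher (53) numbered 80 with DESeq2 and 225 with a slope on log2 *Ttr* over all libraries. Genes called lower (15) numbered 34 with sex as a covariate, 112 with DESeq2, 0 with splits at 50 or 200 CPM, 1 without keratin libraries, 0 with the striatal covariate, and 244 and 87 with the slope over all and over the 79 libraries. That last slope called 3 choroid plexus genes and 1 of motile cilia, and 1 of motile cilia was called without keratin libraries. Within APP/E3/Trem2ko 14 genes were called higher with sex, and outside it 6 were called lower with edgeR. Leaving out 1 library gave 39 to 69 genes higher and 0 to 38 lower over all libraries (3 without D3884, 4 each without D3885, D3891 or E4132, 6 without E3679), 22 to 25 choroid plexus and 1 to 3 motile cilia genes (1 without E4132), 16 to 42 higher and 0 to 1 lower within APP/E3/Trem2ko, and 12 to 168 higher and 0 to 305 lower outside it (8 lower without E3475). Choroid plexus genes called in APP/E3/Trem2ko against APP/E3 were 1 with all libraries, 0 without the *Ttr*-high ones and 0 with the indicator, against E3/Trem2ko 0 and, with the indicator, 1, and in APP/E4/Trem2ko against APP/E3/Trem2ko 5, 0 without and 1 with the indicator. All genes called numbered 45 in APP/E3/Trem2ko against APP/E3, 628 in APP/E4/Trem2ko against APP/E3/Trem2ko and 1944 in APP/E4/Trem2ko against APP/E4, and without the *Ttr*-high libraries 21, 80 and 173, with 22 in the first with the indicator. With 1 library left out they were 33 to 42, 413 to 744 (413 without D3939, 418 without D3885) and 1113 to 1608 (1113 without E3475). The causes were not tested. No paired analysis was possible because the labels give no replicate numbers. The precision is limited by 9 *Ttr*-high libraries, and no library-preparation or dissection record was used here.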

Other observations

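D3938, an APP/E3/Trem2ko mouse with 3.04 CPM of *Ttr*, had 43.4 CPM of *Clic6*, the highest of the 79 other libraries, and the second highest *Igf2* (120 CPM), *Lbp* (3.51 CPM), *Rdh5* (3.19 CPM) and *Abca4* (7.49 CPM) of these. For other called genes its places among the 79 were mixed. It was at place 3 for *Prlr*, 4 for *Kl*, *Pcolce* and *Slc4a2*, 5 for *Ace*, 9 for *Sostdc1* and 10 for *Kcnj13*. It ranked lower for *Slc31a1* (45), *Col8a1* (60), *Aqp1* (68), *Enpp2* (69) and *Msx1* (76). The *Drd2* of D3938, a marker of striatal neurons, was 71.1 CPM. Its *Kcnj13* was 1.32 CPM and its *Sostdc1* 1.5 CPM, below the lowest *Ttr*-high libraries. The most *Aqp1* among the other libraries, 10.2 CPM, was in E3204, an APP/E4 mouse with 1.19 CPM of *Ttr*, and the next, 7.36 CPM, in E3319 with 1.27 CPM of *Ttr*. These values were singled out after they were seen.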
